A study of Homo sapiens with 3 samples.

Results

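The transcripts of the Aurora kinases and of their closest partners were followed in MIAPaCa-2 cells, a human cell line established from a pancreatic cancer. The group was set by name and comprised 7 genes: AURKA and AURKB, which encode Aurora A and Aurora B, BORA and TPX2, which encode activators that work with Aurora A, and INCENP, BIRC5 and CDCA8, which encode the partners of Aurora B in the chromosomal passenger complex. All 7 were present among the 14949 genes of the deposited table. RNA was sequenced from 3 libraries with 1 library per group. The groups were cells with a control short hairpin and no drug (sh-CTL), cells with a short hairpin against METTL3 and no drug (sh-METTL3), and control-hairpin cells exposed to NMS-P937, an inhibitor of the kinase PLK1, at 80 nM for 24 h (sh-CTL + PLK1i, also called the drugged library). METTL3 is the catalytic subunit of the enzyme that deposits N6-methyladenosine (m6A) on RNA. The labels record no treatment for either undrugged library and name no solvent control, and they do not say whether a hairpin line was a clone or a pool.

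Aurora A is a serine/threonine kinase of centrosomes and spindle poles. In G2, BORA helps Aurora A to phosphorylate PLK1 on its activation loop, and this promotes entry into mitosis. On the spindle, TPX2 binds Aurora A, holds it in its active form and brings it to microtubules. Aurora B is the enzyme of the chromosomal passenger complex, which moves from chromosome arms to centromeres, corrects wrong attachments of chromosomes to the spindle, and later acts in cytokinesis. INCENP is the scaffold of that complex and activates Aurora B through its C terminus, while survivin (the product of BIRC5) and borealin (the product of CDCA8) bind the N terminus of INCENP and bring the complex to the centromere. Transcripts of this group are typically made in late S, G2 and M phase and the proteins are removed by ubiquitin ligases at the end of mitosis, so the levels in a mixed culture depend on its cell cycle profile.

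Because many late cell cycle genes carry a CHR element (letters TTTGAA searched here) and CCAAT boxes close to their start, these letters were looked for on both strands from 250 bases upstream to 50 bases downstream of each start in RefSeq promoters (GRCh38.p14). Entries were matched for AURKB, BORA, INCENP and CDCA8, which is 4 of the 7 genes. The letters TTTGAA occurred 1 time each in the windows of BORA, INCENP and CDCA8 and 0 times in the windows of the 2 AURKB starts, and 18.2% of 27305 genes with such windows held them. The letters CCAAT occurred 1 time for AURKB, 2 times for BORA and 3 times each for INCENP and CDCA8, against 39.7% of genes with a match or more. The following 30-base stretches, printed on the strand of each gene, show the 3 CHR matches and the single CCAAT match of AURKB. Capitals mark the match, and in AURKB they are ATTGG, the reverse complement of CCAAT.
BORA, chr13:72727734-72727763, plus strand, match beginning 177 bases upstream of the start: aggctgcgttgaTTTGAAtttggagccacg
INCENP, chr11:62123989-62124018, plus strand, match beginning 10 bases upstream: tgagccttcagtTTTGAAaatcatagtttt
CDCA8, chr1:37692481-37692510, plus strand, match beginning 23 bases upstream: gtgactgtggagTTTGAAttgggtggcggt
AURKB, chr17:8210361-8210390, minus strand, match beginning 153 and 129 bases upstream of its 2 starts: accagcgcccagATTGGggctagtgtgctg
In CDCA8 the CHR letters overlapped a CCAAT match on the other strand, which began 18 bases upstream. A match of letters is a description of the reference sequence and was not tested as a binding site. Its relation to the differences between libraries was not tested either.

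The table held rounded log2 values, from which read counts were recovered. Recovery to whole reads was checked below 2000 reads, and larger counts are approximate. Depth was between 37449329 and 47727518 reads in listed genes per library, with sh-CTL the shallowest. Normalized counts below are reads divided by the library's size factor. Differences of single genes are log2 differences of (normalized count + 1) between 2 libraries, with a 95% exact Clopper-Pearson counting interval in parentheses. Differences of ratios between genes used reads without the added 1, with a 95% counting interval from a normal approximation. These intervals cover counting error only and compare libraries, not conditions. No group was replicated, so no difference had a replicate check and no p-value was computed. METTL3, the gene targeted by the hairpin, had normalized counts of 3939 for sh-CTL, 1651 in sh-METTL3 and 3888 in the drugged library, a log2 difference of -1.25 (-1.34 to -1.17) in the sh-METTL3 library, which went with its label. Of the markers set for the labelled epithelial cells, KRT8, KRT18 and KRT19 were present and EPCAM and CDH1 were not in the table. VIM, a mesenchymal filament gene, was abundant, with 199813 to 267672 reads, and the mesenchymal marker CDH2 was not in the table. The leukocyte marker PTPRC, the endothelial marker PECAM1 and all 4 acinar markers were not in the table. KRT8, KRT18 and KRT19 stood 0.26, 0.27 and 0.43 higher and VIM 0.40 lower on the log2 scale in sh-METTL3 than in sh-CTL. ZEB1, a mesenchymal transcription factor gene, stood above sh-CTL by 0.25 in sh-METTL3 and by 0.39 in the drugged library. CD68, a lysosomal gene used as a macrophage marker, stood 0.89 higher in sh-METTL3 and 0.59 higher in the drugged library. COL1A1, a fibroblast collagen gene, was at 34, 6 and 36 reads in sh-CTL, sh-METTL3 and the drugged library. The part of these marker differences in the results below was not tested.

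The 7 genes lay on 5 chromosomes (GRCh37). AURKA lay at chr20:54944445-54967393 on the minus strand, AURKB at chr17:8108051-8113918 on the minus strand, BORA at chr13:73301887-73330336 on the plus strand, TPX2 at chr20:30327074-30389608 on the plus strand, INCENP at chr11:61891470-61920641 on the plus strand, BIRC5 at chr17:76210267-76221717 on the plus strand, and CDCA8 at chr1:38158153-38175391 on the plus strand. Each value is the sum over the whole gene, so transcript forms were not separated.

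Levels between genes were compared per kilobase of the longest annotated transcript. In sh-CTL, TPX2 had 5640 normalized counts per kilobase and was the most abundant of the group. AURKA followed with 4299 and AURKB with 3774. The spindle activator and both kinases thus headed the order. BIRC5 had 3315 normalized counts per kilobase and CDCA8 had 3031. INCENP, the scaffold that each passenger complex requires, had 1136, and BORA was lowest with 449. The order was identical in sh-METTL3. In sh-CTL + PLK1i, CDCA8 moved from the fifth to the third place with 3782 normalized counts per kilobase, ahead of AURKB with 3422 and BIRC5 with 3301. When the median transcript length of each gene was used instead, BIRC5 and AURKB came first in sh-CTL and INCENP passed CDCA8, whereas BORA stayed the lowest. The order of the 6 more abundant genes therefore rests on which transcripts are assumed, and without replicates there was no spread to separate neighbours in it.

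**Figure D1:**
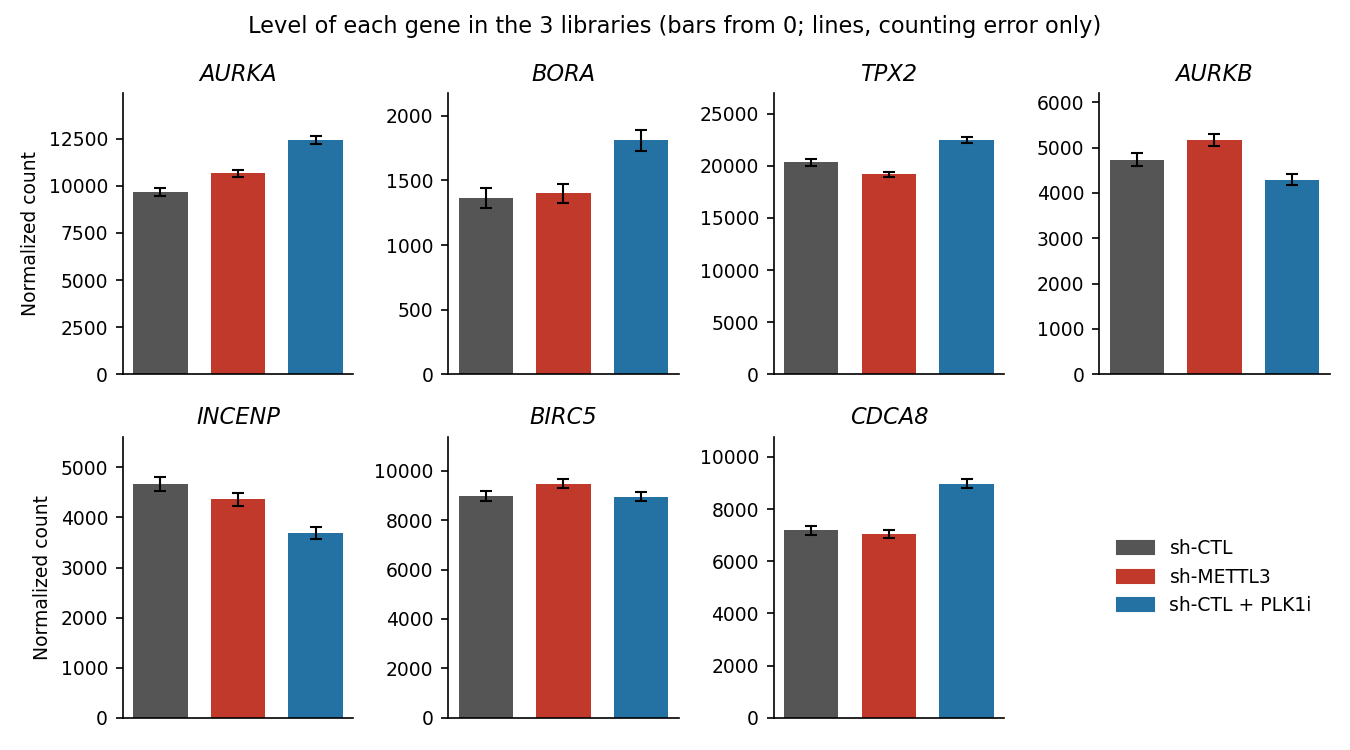
Normalized counts of the 7 genes in the sh-CTL, sh-METTL3 and sh-CTL + PLK1i libraries (1 library each), with 95% counting intervals from a normal approximation. Counts are not divided by length; those of BORA run from 1363 to 1811 and those of TPX2 from 19173 to 22455.

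The first comparison asked how these transcripts stood in cells with lowered METTL3. None of the 7 genes was at least 25% higher or at least 20% lower (the same fold in either direction, used as the line throughout): 0 were higher, where 15.8% of all genes in the table were, and 0 were lower, where 14.5% of all genes were. Low counts widen the spread of all genes, and among the 9074 genes whose mean normalized count was 500 or more (the abundant genes, to which all 7 belong), 6.90% were higher and 9.35% lower by the same line. No gene of the group reached 2-fold either, against 6.37% of all genes. Shares past 2-fold were taken over all genes only, here and below, so the 0 past 2-fold has no abundant-gene share beside it. The median difference of the group was 0.04, and that of all genes was 0.00. Counting intervals lay above 0 for 3 genes (AURKA, AURKB and BIRC5) and below 0 for 2 (TPX2 and INCENP), and 55.2% of all genes had an interval that excluded 0. Intervals narrow with more reads, so this share of all genes and those below are not matched to the abundant members. Both kinases thus sat slightly above the control library, and TPX2 slightly below it.

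AURKA had normalized counts of 9665 in sh-CTL and 10656 in sh-METTL3, a difference of 0.14 (0.10 to 0.18). AURKB had 4733 and 5163, a difference of 0.13 (0.07 to 0.18). The kinase transcripts were therefore higher by nearly the same proportion. BORA, the cofactor for PLK1 phosphorylation, had 1363 and 1400, a difference of 0.04 (-0.07 to 0.15) that was within counting error. TPX2 had 20331 and 19173, a difference of -0.08 (-0.11 to -0.06). In the Aurora A branch only TPX2 was thus lower in the sh-METTL3 library. INCENP had 4671 and 4359, a difference of -0.10 (-0.16 to -0.04). BIRC5 had 8987 and 9474, a difference of 0.08 (0.03 to 0.12). CDCA8 had 7187 and 7048, a difference of -0.03 (-0.08 to 0.02) that was within counting error. The passenger partners therefore lay on both sides of the control value. The same comparison gave PLK1, the kinase that Aurora A and BORA activate, normalized counts of 8058 and 5226, a difference of -0.62 (-0.68 to -0.57), larger in size than that of any of the 7 genes.

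The second comparison asked how the group stood after 24 h of PLK1 inhibition. AURKA and BORA were at least 25% higher, and INCENP was at least 20% lower, with no gene of the group past 2-fold. This line, 0.32 on the log2 scale in either direction, lay inside the counting intervals of AURKA, BORA, CDCA8 and INCENP. It therefore does not separate CDCA8 from the genes past it. The 2 of 7 genes that were higher stood against 10.2% of all genes in the table, the 1 that was lower against 11.5%, and the 0 past 2-fold against 2.52%. The median difference was 0.14 for the group and 0.00 for all genes. Counting intervals lay above 0 for 4 genes (AURKA, BORA, TPX2 and CDCA8) and below 0 for 2 (AURKB and INCENP), and 45.9% of all genes had an interval that excluded 0. This share, too, was not matched for read number. Of the abundant genes, 3.70% were at least 25% higher and 4.31% at least 20% lower, and the central 90% lay between -0.30 and 0.28. In a bulk culture, a larger share of cells in G2 or M phase and more RNA per cell cannot be told apart.

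AURKA had a normalized count of 9665 for sh-CTL, 10656 in sh-METTL3 and 12415 in the drugged library. The difference between the drugged library and sh-CTL was 0.36 (0.32 to 0.40), or 128% of the control level. Among the abundant genes, 233 (2.57%) were higher by more. BORA had 1363, 1400 and 1811 in the same order of libraries, with a difference of 0.41 (0.30 to 0.52), or 133% of control. Only 145 abundant genes (1.60%) stood further above the control. BORA was the gene with the largest difference of the group in this comparison, from the fewest reads (1169 and 1967). TPX2 had 20331, 19173 and 22455, a difference of 0.14 (0.12 to 0.17), or 110% of control. A total of 1706 abundant genes (18.8%) were further above the control than TPX2. All members of the Aurora A branch were thus higher under the inhibitor, with TPX2 well inside the bulk of abundant genes.

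The transcripts of the passenger complex spread in both directions. AURKB had normalized counts of 4733 for sh-CTL, 5163 in sh-METTL3 and 4291 in the drugged library, with a difference of -0.14 (-0.20 to -0.08) under the drug, or 90.7% of control. In the same direction, 1682 abundant genes (18.5%) were further from the control. INCENP had 4671, 4359 and 3688, a difference of -0.34 (-0.40 to -0.28), or 78.9% of control, and 320 abundant genes (3.53%) were lower by more. The kinase and the scaffold that activates it were both lower. BIRC5 had 8987, 9474 and 8950, a difference of -0.01 (-0.05 to 0.04), or 99.6% of control. CDCA8 had 7187, 7048 and 8967, a difference of 0.32 (0.27 to 0.37), or 125% of control, which stopped just short of the line for higher genes, and 341 abundant genes (3.76%) were higher by more. BIRC5 and CDCA8, whose proteins sit side by side on INCENP, therefore stood level with and above the control, respectively. Of the genes nearest to that line, CDCA8 lay just below it while INCENP and AURKA lay just beyond it.

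**Figure D2:**
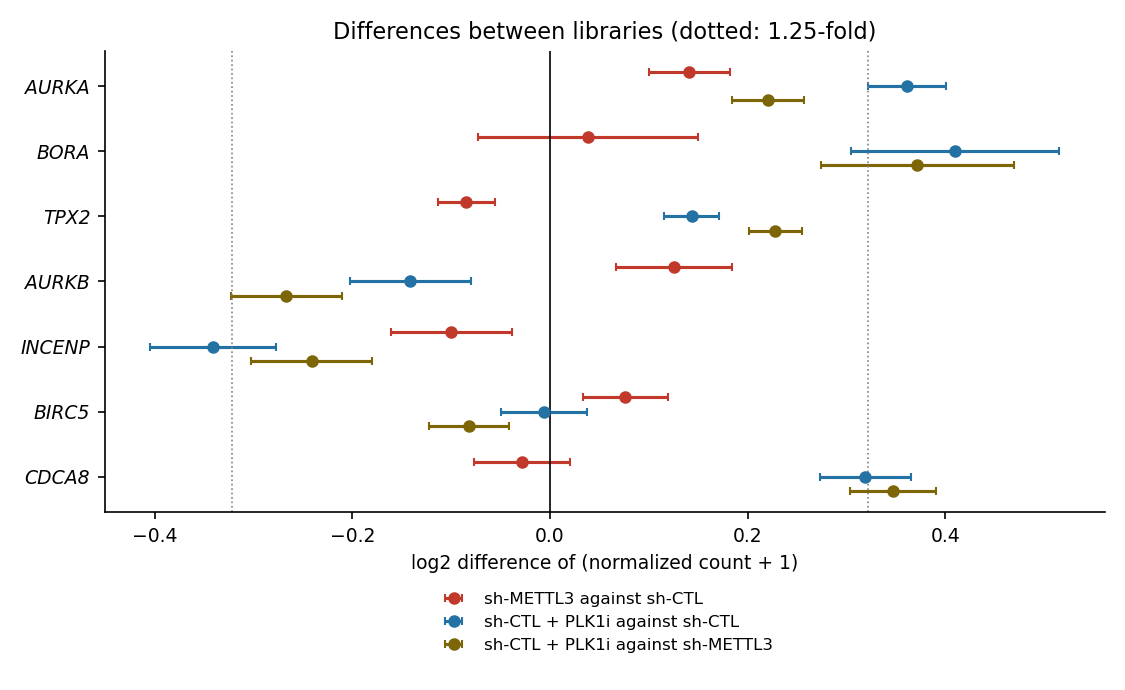
Log2 difference of (normalized count + 1) for each of the 7 genes in 3 comparisons between libraries, with 95% counting intervals. Differences of sh-METTL3 from sh-CTL stay between -0.10 and 0.14, and those of sh-CTL + PLK1i from sh-CTL run from -0.34 for INCENP to 0.41 for BORA.

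**Figure D3:**
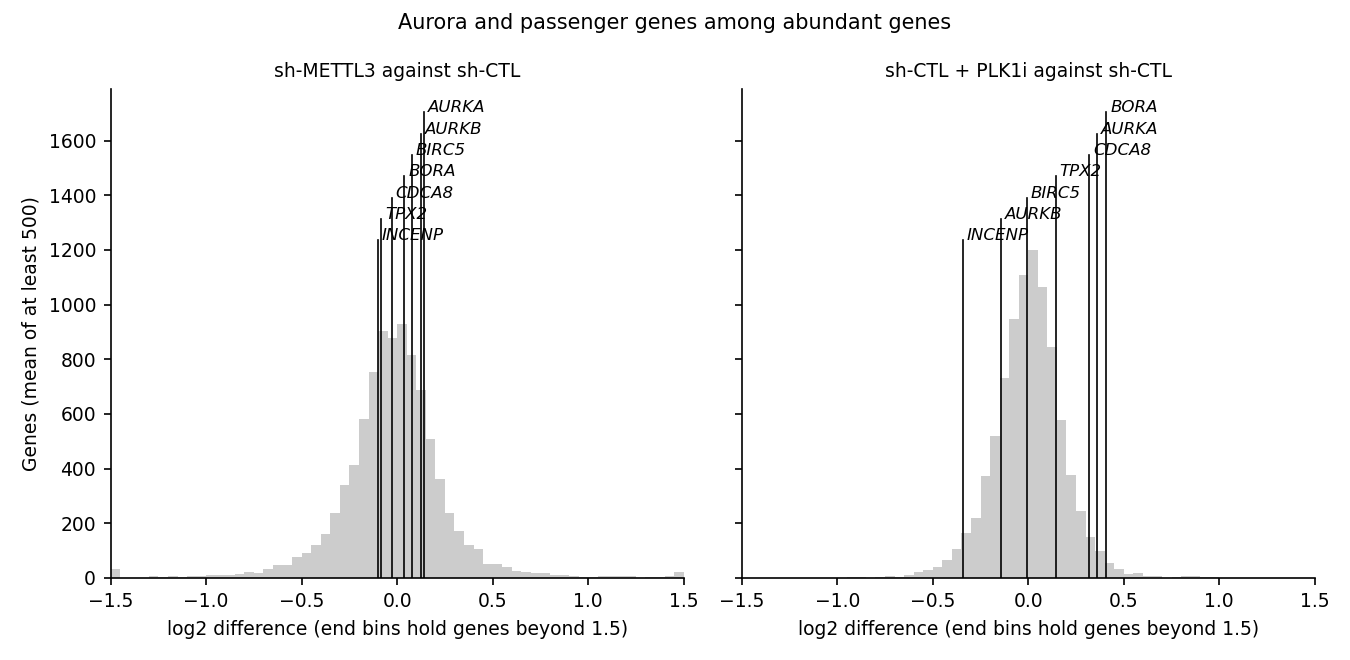
Histogram of the log2 differences of 9074 abundant genes (mean of 500 or more) with the 7 genes marked by lines. In sh-METTL3 against sh-CTL the lines lie close to the centre, and in sh-CTL + PLK1i against sh-CTL the lines of BORA, AURKA and CDCA8 lie at 0.41, 0.36 and 0.32 and that of INCENP at -0.34, near the edges of the distribution.

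The drugged library was also set directly against sh-METTL3, which differ in hairpin as well as drug. BORA and CDCA8 were at least 25% higher in sh-CTL + PLK1i, and 18.2% of all genes were. No member was at least 20% lower, against 19.8% of all genes, and none reached 2-fold, against 7.47%. Of the abundant genes, 13.7% were at least 25% higher and 10.6% at least 20% lower in this comparison. Counting intervals excluded 0 for all 7 genes, 4 above and 3 below, as they did for 64.5% of all genes. That share includes genes with few reads, which have wider intervals, and none was taken over the abundant genes. BORA differed by 0.37 (0.27 to 0.47) and CDCA8 by 0.35 (0.30 to 0.39). TPX2 differed by 0.23 (0.20 to 0.25) and AURKA by 0.22 (0.18 to 0.26). These were the genes that stood above sh-CTL in the drugged library. AURKB differed by -0.27 (-0.32 to -0.21), INCENP by -0.24 (-0.30 to -0.18) and BIRC5 by -0.08 (-0.12 to -0.04). PLK1 itself differed by 0.70 in the same comparison.

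Ratios between 2 genes within a library need no scaling between libraries and their log2 differences between libraries do not depend on gene length. The size of a ratio per unit length does, and the values here use the longest transcript. The ratio of AURKA to AURKB per unit length was 1.14 for sh-CTL, 1.15 in sh-METTL3 and 1.61 in the drugged library, or 0.762, 0.770 and 1.08 with median transcript lengths. Its log2 difference from sh-CTL was 0.02 (-0.06 to 0.09) in sh-METTL3 and 0.50 (0.43 to 0.58) in the drugged library, so the balance of the kinases lay outside counting error in the drugged library and within it in sh-METTL3. TPX2 relative to AURKA was lower in both, with log2 differences of -0.23 (-0.28 to -0.18) for the knockdown and -0.22 (-0.27 to -0.17) for the drug. Both of these values share the sh-CTL library, and the TPX2 to AURKA ratio per unit length there was 1.31. BORA relative to AURKA differed by -0.10 (-0.22 to 0.01) and 0.05 (-0.06 to 0.16), within counting error in both.

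Inside the passenger complex, the ratio of CDCA8 to INCENP showed the largest difference of the 8 ratios examined. It was 2.67 per unit length for sh-CTL, 2.81 in sh-METTL3 and 4.22 in the drugged library, but 0.718, 0.754 and 1.13 with median transcript lengths, so which of the 2 transcripts was the more abundant depends on the length used. Its log2 differences were 0.07 (-0.01 to 0.15) and 0.66 (0.58 to 0.74). The ratio of CDCA8 to AURKB was 0.803 in sh-CTL and 1.11 in sh-CTL + PLK1i (0.493 and 0.678 with median lengths), a log2 difference of 0.46 (0.38 to 0.54), whereas in sh-METTL3 it stood at -0.15 (-0.23 to -0.08). Borealin transcripts were thus more abundant relative to both the kinase and the scaffold in the drugged library than in sh-CTL. INCENP relative to AURKB differed by -0.23 (-0.31 to -0.14) in sh-METTL3 and -0.20 (-0.29 to -0.11) in the drugged library. BIRC5 relative to INCENP differed by 0.18 (0.10 to 0.25) and 0.34 (0.26 to 0.41). The scaffold was therefore low relative to AURKB and to BIRC5 in both libraries, with the control library shared. BIRC5 relative to AURKB differed by -0.05 (-0.12 to 0.02) and 0.14 (0.06 to 0.21).

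**Figure D4:**
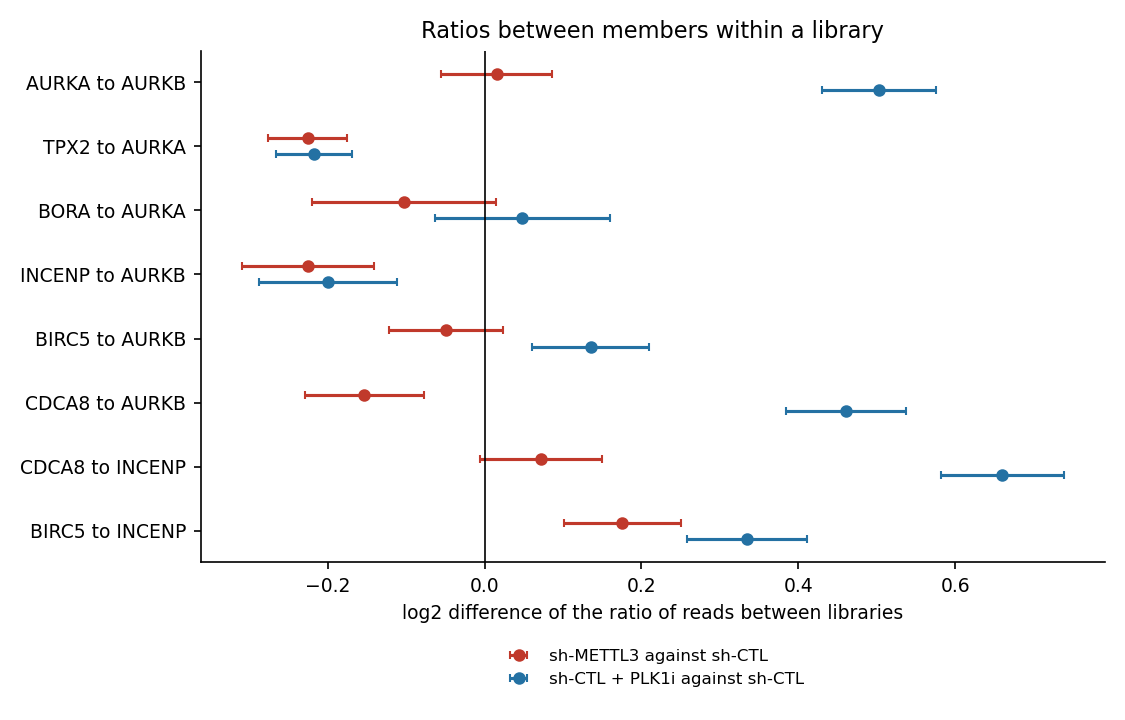
Log2 difference from sh-CTL of 8 ratios of reads between genes of the group, with 95% counting intervals from a normal approximation. The ratio of AURKA to AURKB and the ratios of CDCA8 to AURKB and INCENP stand at 0.50, 0.46 and 0.66 in sh-CTL + PLK1i.

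The surrounding pathway was read from 7 lists of known partners, substrates and comparison genes, 98 different genes in the table in all. In sh-METTL3 against sh-CTL, 3 of these genes were at least 25% higher and 7 were at least 20% lower, with a median of 0.04. In sh-CTL + PLK1i against sh-CTL, 7 were higher and 7 lower, with the same median of 0.04. None was past 2-fold in either comparison, where 6.37% and 2.52% of all genes were. Those shares include genes with low counts, and no 2-fold share was taken over the abundant genes. In sh-METTL3, 15.8% of all genes were higher and 14.5% lower, against 6.90% and 9.35% of abundant genes. Under the inhibitor, the shares were 10.2% and 11.5% of all genes, and 3.70% and 4.31% of abundant genes. They are the background for the counts of every list below.

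Partners and regulators of Aurora A were present for 22 of 23 genes, with NEDD9 not in the table. In sh-METTL3, 0 were at least 25% higher and 3 were lower, with a median of 0.03. The lowest was PLK1, and CDC25B (a phosphatase that activates CDK1) and PPP6R3 (a subunit of the phosphatase that acts on Aurora A) were the others. TACC3, which Aurora A phosphorylates to load it on spindle microtubules, was highest at 0.30. In sh-CTL + PLK1i, 1 was higher and 1 lower, with a median of -0.02. LATS2, a centrosomal and Hippo pathway kinase, had normalized counts of 1700 in sh-CTL and 2209 in the drugged library, a difference of 0.38. KPNA2, an importin alpha that keeps TPX2 inactive away from chromatin, had 29500 and 21817, a difference of -0.44. PLK1 differed by 0.08 (0.03 to 0.12) in this comparison, with normalized counts of 8058 and 8515.

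Genes that load the passenger complex onto chromosomes and the midzone were present for 14 of 15, with KLHL9 not in the table. In sh-METTL3, 1 was at least 25% higher and 2 were lower, with a median of 0.08 that was 0.04 when genes with a mean under 50 were left out. KIF20A, the motor that carries the complex to the midzone, was highest at 0.34. USP9X, a deubiquitinase, was lowest at -0.39, and SGO1, which binds at centromeres, stood at -0.34. In sh-CTL + PLK1i, 2 were higher and 1 lower, with a median of 0.03 that was -0.05 when genes with a mean under 50 were left out. KLHL21 and KLHL13 encode adaptors of the CUL3 ligase that removes Aurora B from chromosomes. KLHL21 stood at 0.44 (0.37 to 0.50). KLHL13 had 35 and 58 reads, and its difference of 0.38 (-0.24 to 1.04) was within counting error. CDK1, the main mitotic kinase, had normalized counts of 6487 for sh-CTL, 7165 in sh-METTL3 and 4781 in the drugged library, a difference of -0.44 under the drug. BUB1, whose kinase activity marks the centromere for the complex, differed by 0.24 in sh-METTL3 and 0.12 in the drugged library.

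Substrates of Aurora B and the phosphatases that oppose it were present for 13 of 14, with CHMP4C not in the table. NDC80, the microtubule-binding kinetochore gene, was the 1 gene at least 25% higher in sh-METTL3, at 0.35, and 0 were lower. PPP1CA, a catalytic subunit of protein phosphatase 1, was lowest at -0.19. Under the inhibitor 0 were higher and 0 lower. KIF2C, the microtubule depolymerase that Aurora B controls at centromeres, was highest at 0.26 and PPP1CB, another catalytic subunit of protein phosphatase 1, was lowest at -0.22. The medians were 0.08 and 0.07.

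All 9 genes listed for the destruction of the Aurora proteins were present. In sh-METTL3, 0 were higher and 1, the cullin CUL1, was lower at -0.39, with a median of 0.08 and UBE2C highest at 0.20. In sh-CTL + PLK1i, 1 was higher and 2 were lower, with a median of 0.05. FZR1, the CDH1 activator of the anaphase-promoting complex that targets Aurora A and Aurora B, had normalized counts of 2406 for sh-CTL, 2634 in sh-METTL3 and 1638 in the drugged library, a difference of -0.55 under the drug. UBE2C, the ubiquitin-conjugating enzyme of that complex, had 7514 in sh-CTL and 5942 in sh-CTL + PLK1i. FBXW7, a ligase subunit with Aurora A among its substrates, differed by 0.37. The drugged library thus held fewer transcripts of FZR1 and UBE2C and more of FBXW7. Of the 9 genes, 6 stood above sh-CTL in the drugged library and 3 below. Those above included CDC20 at 0.19 (0.16 to 0.22) and UBE2S at 0.22 (0.18 to 0.26), so the list did not go in 1 direction.

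Factors of late cell cycle transcription were present for 15 of 15 genes. In sh-METTL3 none was past the line in either direction, the median was -0.04, and the range ran from -0.23 for NFYC to 0.16 for LIN52, a subunit of the complex that binds CHR elements. In sh-CTL + PLK1i, 0 were higher and 2 were lower, with a median of 0.02. E2F1 stood at -0.40, RBBP4 at -0.37, and LIN54, the subunit that contacts CHR letters, was highest at 0.16. FOXM1, a factor that drives transcription of Aurora and passenger genes, had normalized counts of 17513, 17148 and 17696, and it differed by -0.03 in sh-METTL3 and 0.02 in the drugged library. FOXM1 transcripts thus lay close together in the 3 libraries.

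Of the 6 paralogs, 5 were present and BIRC7 was not in the table. AURKC, the third Aurora kinase and mainly a germ cell gene, had 11, 18 and 27 reads. Its differences of 0.36 (-0.78 to 1.61) and 0.90 (-0.10 to 2.11) were within counting error, so a difference was not detectable at this depth. BIRC3, an inhibitor of apoptosis outside the passenger complex, had normalized counts of 1762, 1257 and 2596, with differences of -0.49 in sh-METTL3 and 0.56 in the drugged library. Between the drugged and sh-METTL3 libraries BIRC3 differed by 1.05, the one listed gene past 2-fold in any comparison. For the paralogs the median was -0.08 in sh-METTL3 with 1 higher and 1 lower, and 0.30 in sh-CTL + PLK1i with 2 higher and 0 lower (0.13 without genes of a mean under 50), where BIRC6 was lowest at -0.13.

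A list of 30 other G2 and M phase genes served as the closest comparison. In sh-METTL3, KIF20A was the 1 gene at least 25% higher and PLK1 the 1 gene lower, and the median was 0.06. In sh-CTL + PLK1i, CKS2, a small CDK-binding protein gene, was the 1 gene higher, at 0.40, and CDK1, TOP2A and UBE2C were the 3 lower. TOP2A, which encodes the DNA topoisomerase of mitotic chromosomes, had normalized counts of 43126, 50297 and 29422 and was lowest at -0.55. The median was 0.07, against 0.14 for the Aurora and passenger genes. The range from TOP2A to CKS2 was wider than that from INCENP to BORA, but it covered 30 genes against 7, and a range tends to widen with more genes. The difference between the lists was not tested.

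**Figure D5:**
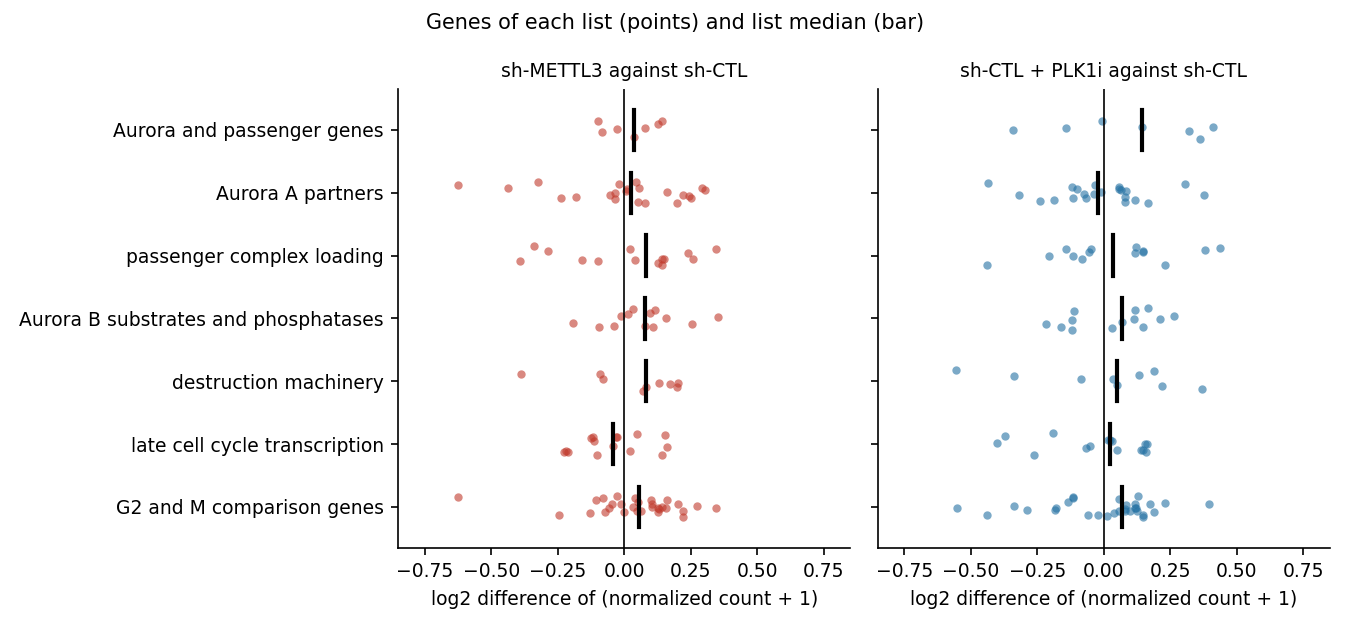
Log2 difference of (normalized count + 1) for every gene of the Aurora and passenger group and of 6 lists (points), with list medians (bars); the paralogs are not drawn. Median differences lie between -0.04 and 0.08 for sh-METTL3 and between -0.02 and 0.14 for the drugged library, with PLK1 at -0.62 in sh-METTL3.

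Neighbouring genes gave a view of the chromosome around each member. The median was taken over 24 listed genes, 12 on each side, with a mean of at least 50. These genes covered unlike distances, such as chr13:52951302-79980612 around BORA and chr11:61196692-62439739 around INCENP. For sh-CTL + PLK1i against sh-CTL, these medians were 0.02 around AURKA, 0.09 around BORA, 0.08 around CDCA8 and -0.01 around INCENP, where the genes themselves stood at 0.36, 0.41, 0.32 and -0.34. For sh-METTL3, the neighbours of TPX2 had a median of -0.19, lower than TPX2 itself at -0.08, and those of BIRC5 had 0.13, above BIRC5 at 0.08. Single neighbours ran from -0.85 to 2.66 around TPX2 and from -0.83 to 0.91 around BIRC5. Around the remaining genes the sh-METTL3 medians lay between -0.02 and 0.02. The part of these surroundings in the results for TPX2 and BIRC5 was not tested.

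BORA overlaps DIS3, an exosome ribonuclease gene on the opposite strand, by 4030 bases. DIS3 had 2297, 3022 and 3554 reads, and differed by 0.06 in sh-METTL3 and 0.29 in the drugged library, the same direction as BORA at 0.04 and 0.41. The library kit keeps strand, but whether counting used it is not given in the sources used here, so shared reads of BORA and DIS3 cannot be told apart and the BORA values are uncertain to that extent. The processed pseudogene AURKAP1 was listed with 13, 17 and 38 reads, against 8288, 11496 and 13486 reads for AURKA, so its reads were few beside those of the parent gene.

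The genes whose pair of differences from sh-CTL lay nearest to each member, among abundant genes, were found by straight-line distance over these 2 comparisons. AURKA had AGAP4 and RNF126, AURKB had DIS3L2 and PAXBP1, and BORA had HERPUD1 and KNSTRN. TPX2 had EFHD2 and RRP7A, INCENP had OGFOD2, BIRC5 had LMX1B and QSOX1, and CDCA8 had ARPC5L and ZNF777. KNSTRN, which encodes a spindle protein, stood at 0.05 in sh-METTL3 and 0.41 in the drugged library. A distance of 0.05 was met by 14 genes for BORA, 20 for AURKA, 44 for INCENP, 47 for CDCA8, 159 for AURKB, 231 for TPX2 and 349 for BIRC5, of 9067 genes. With 3 libraries, such a likeness covers only 2 values per gene.

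As m6A is placed at DRACH sites, of which GGACT is one form, this motif was counted in the longest transcript of each gene. INCENP held 6 copies, or 1.46 per kilobase, and 78.7% of 14744 genes held fewer per kilobase. CDCA8 held 3 (1.27 per kilobase, with 70.2% of genes below) and BIRC5 held 2 (0.738, with 37.5% below). The remaining 4 genes held 1 copy each, at 0.797 per kilobase for AURKB, 0.445 for AURKA, 0.330 for BORA and 0.277 for TPX2. PLK1 held 7, or 1.69 per kilobase, with 86.1% of genes below, and the median of all genes was 0.919. The longest annotated transcript need not be the one that the cells express. For PLK1 it had 4135 bases, against a median of 683 over its annotated transcripts. The copies are letters in a reference transcript, and methylation was not measured in these libraries.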

How the data were processed

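Polyadenylated RNA of 3 MIAPaCa-2 libraries (1 per group, assigned by sample title) was sequenced with a stranded kit. The authors deposited log2 values for 14949 genes. Per the submitters' processing notes, FastQC 0.11.9, STAR 2.7.10, RSEM 1.3.3 and hg19 were used; their order and the normalization are not given in the sources used here. The deposited log2 values equalled log2 of a scaled count plus 4. After undoing this, 1 read was worth 1.17, 0.927 and 0.921 in sh-CTL, sh-METTL3 and sh-CTL + PLK1i (size factors 0.858, 1.08 and 1.09), and 100% of values below 2000 reads lay within 0.1 of a whole read. Without replicates no count test was run. Differences used a pseudocount of 1, which understates low genes, and no filter removed a gene, since the smallest mean was 7.72. Interval calculation was tested on simulated data. Alternatives were other pseudocounts, scalings, filters, folds and transcript lengths.

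Positions and transcript lengths came from GENCODE 44 on GRCh37 (14744 genes) and promoters from RefSeq. Named genes were all 7 members, METTL3, PLK1, AURKC, FOXM1 and BUB1, the highest and lowest gene of each list and any past 2-fold, and the 2 nearest abundant genes per member; the other genes past the 25% or 20% line, CDC25B, PPP6R3, SGO1, KLHL13, RBBP4, UBE2C and CDK1, and the cell type markers were named after their values were seen. 1 gene that this rule selects is not reported here. Members and lists were chosen with earlier results of these data known. Python 3.11.15, numpy 2.4.6, scipy 1.17.1 and pandas 2.3.3 were used.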

Additional observations from a re-analysis of the deposited data

How the results depend on the processing

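Of the single-gene differences of the 7 genes, 125 of 126 moved by less than their counting interval, and the exception was TPX2 between sh-CTL + PLK1i and sh-METTL3, which was 0.19 with upper-quartile scaling. With that scaling 1 gene of the group, in place of 2, was at least 25% higher in sh-CTL + PLK1i than in sh-METTL3. At a threshold of 1.5-fold, 0 members were higher and 0 lower in sh-CTL + PLK1i against sh-CTL, and 0 were higher against sh-METTL3. The lists held 0 higher and 1 lower gene in sh-METTL3 and 1 higher and 0 lower in sh-CTL + PLK1i, as fewer genes pass a stricter line. No share of all genes or of abundant genes was taken at 1.5-fold, so these counts have no background beside them. With median transcript lengths, the ratios in sh-CTL were 0.762 for AURKA to AURKB, 1.21 for TPX2 to AURKA, 0.171 for BORA to AURKA, 0.687 for INCENP to AURKB, 2.22 for BIRC5 to AURKB, 0.493 for CDCA8 to AURKB, 0.718 for CDCA8 to INCENP and 3.24 for BIRC5 to INCENP. AURKA to AURKB, BIRC5 to AURKB and CDCA8 to INCENP thereby crossed 1, whereas log2 differences of ratios between libraries do not depend on length. In sh-CTL + PLK1i, a minimum mean of 50 moved the list median of the paralogs to 0.13 and that of passenger complex loading from 0.03 to -0.05, and so did a minimum of 500; no other median, difference or count listed here changed sign. No paired analysis was possible because each group held 1 library and the result came from no test. Counting error limits the genes with few reads, among them AURKC, KLHL13 and COL1A1, and variation between cultures was not measured.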
